A study of Mus musculus with 12 samples.

Results

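Transcripts of 10 genes of steroid hormone synthesis and of the cells that make these hormones were followed in fetal mouse gonads. They were chosen as a list of symbols (the cholesterol carrier Star, the enzymes Cyp11a1, Cyp17a1, Hsd3b1, Hsd17b1, Hsd17b3, Cyp19a1 and Akr1b7, the Leydig cell hormone Insl3 and the adrenal receptor Mc2r), and are 10 of the 32285 genes in the count tables. All 10 passed the filter on low counts. Single cells of whole gonads at embryonic day 12 (E12, 23 ± 3 tail somites) were profiled in 6 groups of 2 libraries, namely XX and XY embryos that were WT, -KTS KO or +KTS KO. Wt1, a zinc finger transcription factor of the gonad, is spliced into forms without or with the short KTS insertion between its last zinc fingers. -KTS KO embryos cannot make the form without it, and +KTS KO embryos cannot make the form with it because of a mutated donor splice site, as found in Frasier syndrome. The paper also reports more -KTS transcripts in +KTS KO gonads than in controls, with similar total WT1 protein in XY gonads. Loss of +KTS and gain of -KTS cannot be told apart in these libraries, and "loss of +KTS" below only names the allele. Both are germline alleles that act in every cell, all lines were kept on the mixed background B6CBAF1/JRj, and the study's supplement describes pooling of embryos for -KTS KO samples, although it lists a single embryo for 1 XX -KTS KO sample. Where -KTS KO libraries were pooled, pooling and loss of -KTS cannot be told apart.

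Steroid synthesis starts when Star delivers cholesterol to the inner mitochondrial membrane, where Cyp11a1 cleaves its side chain to make pregnenolone. Hsd3b1 and Cyp17a1 turn pregnenolone towards progestins and androgens, Hsd17b3 makes testosterone, Hsd17b1 favours estradiol and Cyp19a1, the aromatase, turns androgens into estrogens. In the fetal mouse testis the first steps belong to Leydig cells of the interstitium, while the last step to testosterone is known to take place in Sertoli cells. The adrenal cortex uses the same first enzymes, responds to corticotropin through Mc2r and expresses Akr1b7, an aldo-keto reductase. Adrenal and gonad arise from a common primordium, which is why these markers are looked at side by side.

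In the GENCODE M21 annotation of the GRCm38 build, Star is at chr8:25806555-25815982, Cyp11a1 at chr9:58006411-58027023, Hsd17b1 at chr11:101078411-101080527, Insl3 at chr8:71689214-71690575 and Akr1b7 at chr6:34412334-34423142, all on the plus strand. On the minus strand, Cyp17a1 is at chr19:46667165-46673172, Hsd3b1 at chr3:98852194-98859794, Hsd17b3 at chr13:64058266-64089230, and Cyp19a1 at chr9:54165937-54268110. Insl3 overlaps Jak3 and Cyp11a1 overlaps Gm17322 on the same strand, so counts of these genes are less certain. Hsd3b1 (with Hsd3b6) and Akr1b7 (with Akr1b3 and Akr1b8) have related genes, and their counts may be less certain too. Sequences of the related genes were not compared.

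Promoter windows from RefSeq (GRCm38.p6, 250 bases before to 50 bases after a start, written 5′ to 3′ on the strand of the gene) were listed for 6 of the 9 genes looked up, with 9 windows, and none was listed for Star, Cyp17a1 and Hsd17b1. They were searched on both strands for the letters AAGGTCA, bound by NR5A1, the master regulator of steroid enzymes, for AGATAA, bound by GATA factors, and for GCGGGGG, bound by WT1 and EGR factors. The NR5A1 letters were found once, in Akr1b7, and the GATA letters once, in Hsd3b1. Of 32851 RefSeq promoters, 4.72% held the NR5A1 letters, 11.2% the GATA letters and 10.8% the WT1/EGR letters. The windows of Hsd3b1 and Akr1b7 are shown for these matches, in capitals, that of Hsd17b3 because it was highest in XY WT, and that of Insl3 because it was highest in +KTS KO. Both windows listed for Cyp11a1 (at chr9:57997774-57998073 and chr9:58014702-58015001) lie away from the start of the gene in the annotation, and they are not shown. A match is a run of letters and not a measured site.
Akr1b7, chr6:34412112-34412411, plus strand: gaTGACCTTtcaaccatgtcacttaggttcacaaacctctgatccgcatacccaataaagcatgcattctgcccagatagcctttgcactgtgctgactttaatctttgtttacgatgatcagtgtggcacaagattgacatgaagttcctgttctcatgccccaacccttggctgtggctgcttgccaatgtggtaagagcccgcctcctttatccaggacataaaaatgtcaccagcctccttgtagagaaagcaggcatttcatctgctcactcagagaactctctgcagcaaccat
Hsd3b1, chr3:98859745-98860044, minus strand: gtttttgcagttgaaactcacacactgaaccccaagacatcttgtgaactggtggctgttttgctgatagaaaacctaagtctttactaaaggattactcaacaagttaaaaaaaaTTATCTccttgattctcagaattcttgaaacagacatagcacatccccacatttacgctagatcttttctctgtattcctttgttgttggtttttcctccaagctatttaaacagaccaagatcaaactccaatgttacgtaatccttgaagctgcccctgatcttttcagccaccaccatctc
Hsd17b3, chr13:64089152-64089451, minus strand: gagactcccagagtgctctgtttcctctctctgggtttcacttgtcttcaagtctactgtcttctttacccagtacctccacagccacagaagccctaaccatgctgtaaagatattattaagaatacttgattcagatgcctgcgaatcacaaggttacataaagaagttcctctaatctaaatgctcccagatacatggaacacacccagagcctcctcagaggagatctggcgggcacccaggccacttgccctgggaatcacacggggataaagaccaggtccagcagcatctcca
Insl3, chr8:71689002-71689301, plus strand: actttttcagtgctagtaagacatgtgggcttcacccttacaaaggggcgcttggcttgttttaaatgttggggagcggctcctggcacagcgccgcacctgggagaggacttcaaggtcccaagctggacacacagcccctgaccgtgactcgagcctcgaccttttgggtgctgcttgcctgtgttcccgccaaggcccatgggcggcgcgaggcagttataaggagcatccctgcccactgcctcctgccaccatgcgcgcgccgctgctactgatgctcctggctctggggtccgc

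The counts were unique molecular identifiers (UMIs) of 3′ single-cell libraries, added up per library over its gonadal somatic cells and given as CPM (counts scaled, with TMM factors, to a common library size). There were 66195 such cells, 4093 to 7697 in a library, with 57396466 to 99605495 UMIs in a library. Wt1 itself was at 170 to 305 CPM in every library, and gene counts of this kind do not separate its splice forms. One library stood apart. XY +KTS KO replicate 1 had 62.0% of its gonadal cells in a cluster led by Cst12, Btg2, Fos, Fosb and Junb (cluster 8), and its summed level of Fos, Fosb, Junb and Egr1 was 1258 CPM against 131 to 278 CPM in the other 11 libraries. Most calls, pair counts and shares of cells or UMIs in XY +KTS KO are given also without it or by library, and the others include it. XY +KTS KO replicate 2 held 9.29% of its gonadal cells in a cluster led by Hox genes (cluster 23). No marker list set aside clusters 23, 31 and 34 (led by Hoxc10, Actc1 and Crabp1), although they may be neighbouring tissue. XY +KTS KO gave 636 of the 645, all 97 and 41 of the 46 cells of these clusters. Of 76253 barcode sequences, 740 (0.970%) occurred in more than 1 library, and a pair of libraries shared 2 to 31.

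Most Cyp11a1 and Akr1b7 transcripts were gone in -KTS KO of both sexes, where Star and Mc2r were higher. Cyp11a1 and Cyp17a1 were higher in +KTS KO of both sexes. Hsd17b1 and Hsd17b3, high in XY WT gonads, fell in XY gonads of both mutants. With edgeR's quasi-likelihood test and a false discovery rate of 0.05 over 17708 genes, 2 of the 10 genes were higher and 3 lower in XX -KTS KO than in XX WT, where 6.77% and 9.52% of all genes tested were. In XY -KTS KO against XY WT, 2 were higher and 4 lower (11% and 12.4% of all genes). In XX +KTS KO against XX WT, 3 passed, all of them higher (4.93% of all genes passed, 2.30% higher and 2.63% lower). In XY +KTS KO against XY WT, 3 were higher and 2 lower (6.01% and 6.34% of all genes). Between XY and XX WT 3 passed, all of them higher in XY (13.2% of all genes passed, 6.97% higher and 6.24% lower). The median log2 fold change of the 10 genes was -0.32, -1.55, 1.34, -0.40 and 0.62 in these comparisons, in the same order, against 0.01, 0.01, 0.00, 0.05 and -0.02 over all genes. The mutants of one sex share their WT libraries, so their changes are set side by side and not correlated. Cell type markers outside the 10 genes moved in the same libraries. The 5 pre-supporting markers summed to 1388 and 1149 CPM in XX WT and 757 and 988 in XY WT, to 356 and 388 (XX) and 524 and 477 (XY) in -KTS KO, and to 1406 and 993 (XX) and 985 and 1178 (XY) in +KTS KO. Nr0b1, a pre-supporting marker, is also on the list of other pathway genes. The 5 pre-granulosa markers summed to 977 and 968 CPM in XX WT and to 123 to 321 in the other 10 libraries. Foxl2, 1 of these 5, was at 32.8 CPM at most in any library, so other genes of the list carried the sum in XX WT. The paper reports pre-granulosa clusters in +KTS KO gonads, distinct from those of XX WT, and this sum does not address them. None of the markers of either list was at 0 in any library, and their part in the differences was not tested. In such sums, fewer cells of a type and less RNA per cell cannot be told apart, and with 2 libraries a group the p-values measure the spread between these libraries only.

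**Figure D1:**
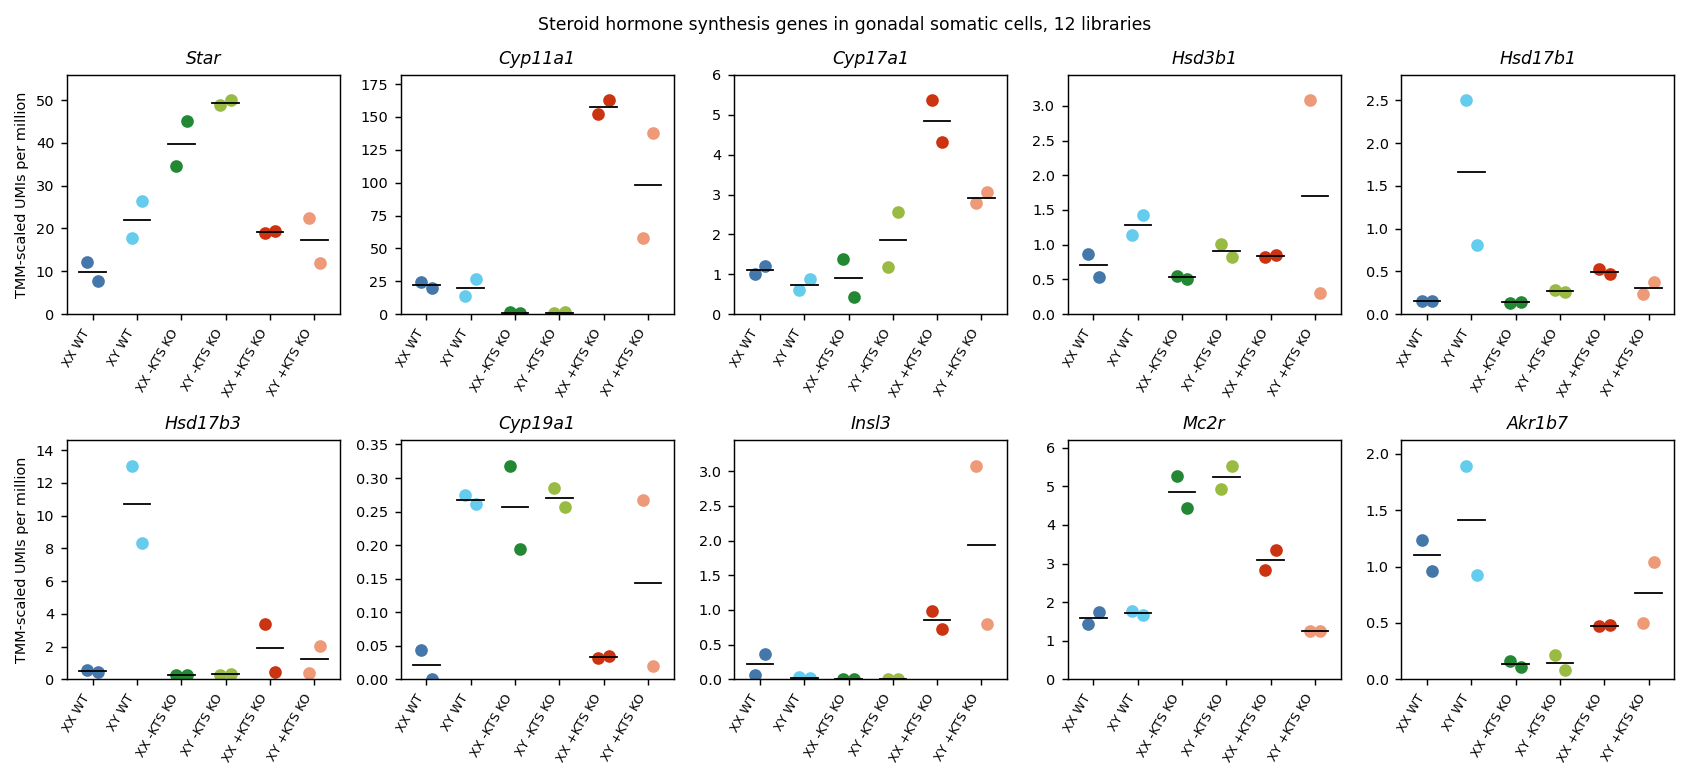
Level of each of the 10 genes in CPM, from 0 on a separate axis for each gene, in each of the 12 libraries (points) of the 6 groups, with the group mean as a line. Cyp11a1 lies at 0.529 to 1.57 CPM in the 4 -KTS KO libraries and at 58.2 to 163 CPM in the 4 +KTS KO libraries, and Insl3 was not counted in any -KTS KO library.

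Star, the carrier that limits the rate of steroid synthesis, was at 12.1 and 7.70 CPM in the XX WT libraries, 17.7 and 26.5 in XY WT, 34.6 and 45.1 (XX) and 48.8 and 49.97 (XY) in -KTS KO, 19.0 and 19.3 (XX) and 22.5 and 11.96 (XY) in +KTS KO. All 4 -KTS KO libraries were above the other 8. Star rose 4.02-fold in XX -KTS KO (log2 fold change 2.01, SE 0.32, edgeR adjusted p = 0.00330) and 2.24-fold in XY -KTS KO (1.16, SE 0.31, edgeR adjusted p = 0.0244). The first call was lost without replicate 2 of both groups (log2 1.51, edgeR adjusted p = 0.110) and the second without replicate 1 (0.92, 0.260) or replicate 2 (1.47, 0.0939). Star was also higher in XY WT than in XX WT (log2 1.16, SE 0.32, edgeR adjusted p = 0.0399), a call lost without replicate 1 (1.78, 0.0845) or replicate 2 (0.52, 0.518). Neither +KTS KO group passed the test, at a log2 fold change of 0.95 in XX and -0.36 in XY (edgeR adjusted p = 0.131 and 0.462). The XY value turned to 0.32 without replicate 2, and was -0.87 without XY +KTS KO replicate 1.

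Cyp11a1, the enzyme that commits cholesterol to the steroid pathway, had the widest range of the 10 genes in CPM. It was at 24.5 and 20.1 CPM in XX WT and 13.4 and 26.5 in XY WT, at 1.29 and 0.529 (XX) and 0.856 and 1.57 (XY) in -KTS KO, and at 153 and 163 (XX) and 58.2 and 137 (XY) in +KTS KO. The 3 genotypes did not overlap, whereas the sexes overlapped in WT and in -KTS KO. Cyp11a1 fell 23.8-fold in XX -KTS KO (log2 fold change -4.58, SE 0.56, edgeR adjusted p = 0.000893) and 16.3-fold in XY -KTS KO (-4.02, SE 0.54, edgeR adjusted p = 0.000846). It rose 7.06-fold in XX +KTS KO (2.82, SE 0.49, edgeR adjusted p = 0.0130) and 4.91-fold in XY +KTS KO (2.30, SE 0.48, edgeR adjusted p = 0.0155). Both -KTS KO calls and the XY +KTS KO call were kept under every alternative, among them the fit without XY +KTS KO replicate 1 (2.80, edgeR adjusted p = 0.00701). The XX +KTS KO call was lost without replicate 1 (3.01, 0.200) or replicate 2 (2.64, 0.328). XY and XX WT differed by -0.16 on the log2 scale (SE 0.46, edgeR adjusted p = 0.857).

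Cyp17a1, needed for androgens, was at 1.00 and 1.20 CPM in XX WT and 0.593 and 0.875 in XY WT, at 1.38 and 0.441 (XX) and 1.17 and 2.55 (XY) in -KTS KO, and at 5.37 and 4.32 (XX) and 2.78 and 3.06 (XY) in +KTS KO. The 4 +KTS KO libraries were above the other 8. It rose 4.38-fold in XX +KTS KO (log2 2.13, SE 0.50, edgeR adjusted p = 0.0402) and 3.98-fold in XY +KTS KO (1.99, SE 0.51, edgeR adjusted p = 0.0327). Both calls were lost when 1 replicate number was left out, with edgeR adjusted p = 0.462 and 0.391 in XX, and 0.199 and 0.0742 in XY, or 0.0617 without XY +KTS KO replicate 1 alone. With all kept cells summed the XX value was at 0.0640 by the same test. In -KTS KO neither sex passed the test (log2 -0.25 in XX and 1.34 in XY, edgeR adjusted p = 0.787 and 0.0821), and the XX value turned to 0.46 without replicate 2.

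Hsd3b1, which converts pregnenolone to progesterone, stayed between 0.308 and 3.08 CPM, and both ends of this range were XY +KTS KO libraries (replicates 2 and 1). The other 10 libraries held 0.512 to 1.43 CPM. It did not pass edgeR's test in any of the 9 comparisons. Its difference in XY +KTS KO was 0.39 on the log2 scale (SE 0.74, edgeR adjusted p = 0.748), -2.04 without XY +KTS KO replicate 1 (edgeR adjusted p = 0.0181), -2.20 without replicate 1 of both groups (0.0319) and 1.40 without replicate 2 of both groups (0.0436), so the direction differed with the library kept.

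Hsd17b3 and Hsd17b1, the enzymes that complete testosterone and estradiol, marked XY WT gonads. Hsd17b3 was at 13.1 and 8.32 CPM in XY WT and at 0.546 and 0.436 in XX WT, 0.245 and 0.282 (XX) and 0.285 and 0.317 (XY) in -KTS KO, 3.39 and 0.468 (XX) and 0.365 and 2.07 (XY) in +KTS KO. Hsd17b1 was at 2.50 and 0.813 CPM in XY WT and at 0.135 to 0.527 in the other 10 libraries. Neither gene overlapped between XY WT and any other group. XY WT exceeded XX WT 21.8-fold in Hsd17b3 (log2 4.45, SE 0.94, edgeR adjusted p = 0.0139) and 10.9-fold in Hsd17b1 (3.45, SE 0.53, edgeR adjusted p = 0.00341). In XY -KTS KO, Hsd17b3 fell 35.3-fold (log2 -5.14, SE 0.98, edgeR adjusted p = 0.00508) and Hsd17b1 6.11-fold (-2.61, SE 0.50, edgeR adjusted p = 0.00529). In XY +KTS KO, Hsd17b3 fell 8.73-fold (-3.13, SE 0.87, edgeR adjusted p = 0.0440) and Hsd17b1 5.47-fold (-2.45, SE 0.50, edgeR adjusted p = 0.0135). Leaving out replicate 1 or replicate 2 of the groups compared kept every direction but not every call. Hsd17b3 stayed at log2 4.25 and 4.56 between the WT sexes (edgeR adjusted p = 0.239 and 0.135) and at -4.70 and -5.51 in XY -KTS KO (0.105 and 0.0815). In XY +KTS KO its value depended on the library kept, at -2.004 without replicate 1 and -5.18 without replicate 2 (edgeR adjusted p = 0.278 and 0.0211). Hsd17b1 was at 2.40 and 4.05 between the WT sexes (edgeR adjusted p = 0.0991 and 0.0107), -1.66 and -3.12 in XY -KTS KO (0.117 and 0.0155) and -1.13 and -3.45 in XY +KTS KO (0.163 and 0.00354), smaller each time without replicate 1. Without XY +KTS KO replicate 1 alone, Hsd17b3 was at -2.35 (edgeR adjusted p = 0.132) and Hsd17b1 at -2.14 (0.0605). Hsd17b3 in XY +KTS KO was at an edgeR adjusted p of 0.0680 with all kept cells summed and 0.0528 without clusters 23, 31 and 34 (led by Hoxc10, Actc1 and Crabp1). The summed level of 7 Sertoli markers was 1386 and 1742 CPM in XY WT and 20.6 to 225 CPM in the other 10 libraries. Its part in these differences was not tested.

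Cyp19a1, the aromatase, was hardly counted. It had 19 and 17 UMIs in XY WT, 26 and 11 (XX) and 20 and 21 (XY) in -KTS KO, and 22 and 2 in the XY +KTS KO libraries. It had 3 and 0 in XX WT and 3 and 3 in XX +KTS KO. Relative to all UMIs of the group, XX -KTS KO held 13.6 times the XX WT level (95% exact counting interval 4.30 to 68.9) and XY WT held 13.5 times (interval 4.25 to 68.3). Neither difference passed edgeR's test (adjusted p = 0.0614 and 0.0670). The intervals cover counting error only, as all intervals given here do.

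**Figure D2:**
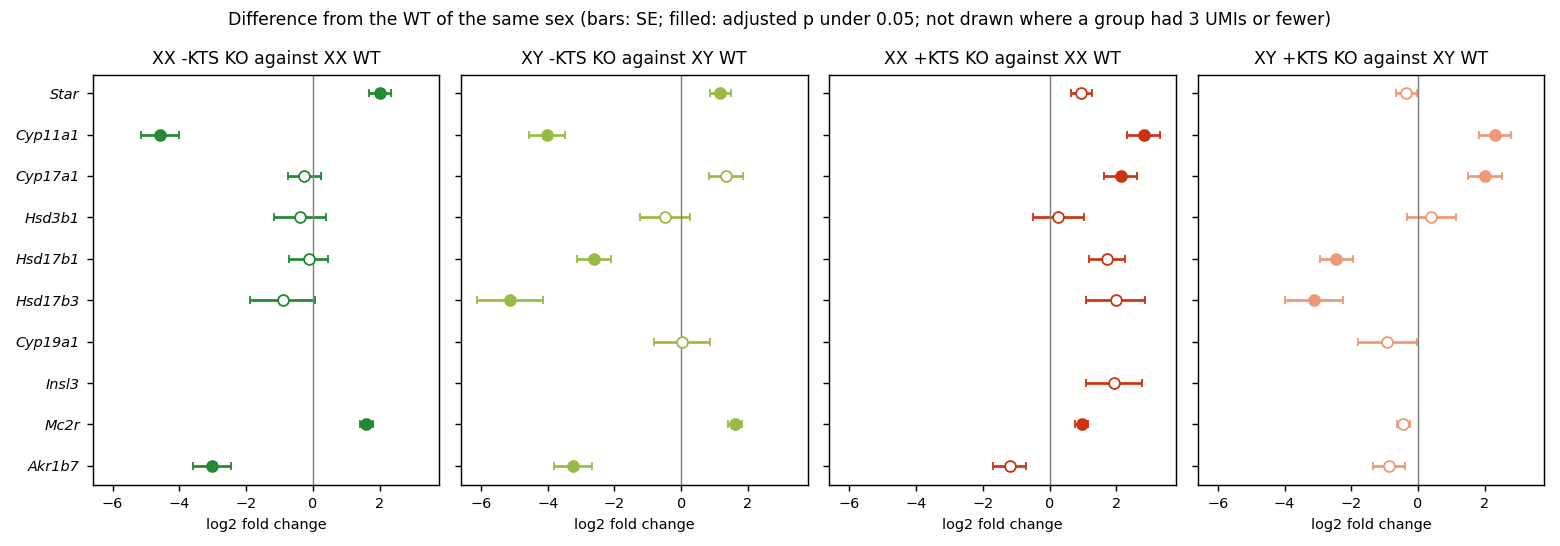
Log2 fold change of each gene (horizontal axis) with its standard error (bars) in the comparison of each mutant with WT of the same sex, filled where the edgeR adjusted p was under 0.05 and omitted where a group had 3 UMIs or fewer. Cyp11a1 falls by 4.58 and 4.02 in -KTS KO and rises by 2.82 and 2.30 in +KTS KO, whereas Star and Mc2r rise in -KTS KO.

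Insl3, a peptide hormone of Leydig cells that guides descent of the testis, was near the limit of counting in WT. XX WT had 4 and 34 UMIs, XY WT 2 and 1, and each of the 4 -KTS KO libraries 0. XX +KTS KO had 91 and 62 UMIs and XY +KTS KO 253 and 77, that is 0.979, 0.726, 3.08 and 0.791 CPM. All 4 +KTS KO libraries were thus above the other 8. XX -KTS KO was at least 11.5-fold lower than XX WT, against a floor of 3 counts over the group (edgeR adjusted p = 0.0479), and this call was lost without replicate 1 (0.148), without replicate 2 (0.357), with all kept cells summed (0.0727) and with doublets kept (0.0503), with 34 of the 38 XX WT counts in replicate 2. XX WT replicate 1 alone was at 0.0590 CPM, nearer the floor of 0.0213 CPM, so the limit of 11.5-fold rests on replicate 2. For XY -KTS KO no fold is given, since XY WT had 3 counts. XY +KTS KO exceeded XY WT by a count ratio of 87.3 (95% exact interval 29.6 to 425, edgeR adjusted p = 0.0132). Of its 330 UMIs, 253 came from replicate 1, and without that library alone the ratio was 35.7 (interval 11.8 to 177, edgeR adjusted p = 0.0264). The call was lost without replicate 1 of both groups (edgeR adjusted p = 0.0930). In XX +KTS KO the log2 difference was 1.93 (SE 0.83, edgeR adjusted p = 0.273).

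Mc2r (chr18:68406907-68429320, minus strand), the receptor of corticotropin, was at 1.43 and 1.76 CPM in XX WT, 1.77 and 1.66 in XY WT, 5.26 and 4.45 (XX) and 4.94 and 5.54 (XY) in -KTS KO, 2.83 and 3.36 (XX) and 1.25 and 1.26 (XY) in +KTS KO. The -KTS KO libraries were the highest 4 and the XX +KTS KO libraries came next, while both WT groups overlapped. The 7 interstitial progenitor markers, none of them at 0 in any library, summed to 387 and 337 CPM in XX WT and 930 and 535 in XY WT, to 719 and 519 (XX) and 863 and 624 (XY) in -KTS KO, and to 463 and 553 (XX) and 527 and 479 (XY) in +KTS KO. Their part in the Mc2r differences was not tested. Mc2r rose 3.04-fold in XX -KTS KO (log2 1.60, SE 0.20, edgeR adjusted p = 0.000993) and 3.06-fold in XY -KTS KO (1.61, SE 0.20, edgeR adjusted p = 0.000588). The XY call was kept under every alternative, and the XX call was lost without replicate 1 (1.34, edgeR adjusted p = 0.0762). In XX +KTS KO it rose 1.94-fold (0.95, SE 0.20, edgeR adjusted p = 0.0270), lost without replicate 1 (0.305), without replicate 2 (0.354) or with all kept cells summed (0.0851). In XY +KTS KO it differed by -0.44 (SE 0.20, edgeR adjusted p = 0.173). Mrap, the accessory protein that brings Mc2r to the cell surface, was at 1.48 and 1.30 CPM in XX WT and 2.01 and 1.10 in XY WT, at 0.194 to 0.537 in the 4 -KTS KO libraries, and at 2.71 and 1.89 (XX) and 3.86 and 1.79 (XY) in +KTS KO.

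Akr1b7, a reductase of the adrenal and of genital tissues, was at 1.24 and 0.960 CPM in XX WT and 1.90 and 0.921 in XY WT. In -KTS KO it was at 0.159 and 0.106 in XX and 0.214 and 0.0854 in XY, and in +KTS KO at 0.473 and 0.480 in XX and 0.499 and 1.04 in XY. The -KTS KO libraries were below the other 8. It fell 8.05-fold in XX -KTS KO (log2 -3.01, SE 0.57, edgeR adjusted p = 0.00691) and 9.47-fold in XY -KTS KO (-3.24, SE 0.56, edgeR adjusted p = 0.00299). The XY call was kept under every alternative, and the XX call was lost without replicate 1 (0.139), without replicate 2 (0.119) or with all kept cells summed (0.0572). The +KTS KO differences were -1.20 in XX and -0.87 in XY (edgeR adjusted p = 0.231 and 0.252), and the latter passed without replicate 2 (-1.95, edgeR adjusted p = 0.0386).

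Between the sexes of +KTS KO, both XX libraries were above both XY libraries in Mc2r (log2 -1.30 in XY against XX, SE 0.20, edgeR adjusted p = 0.112). The same held for Cyp11a1, Cyp17a1 and Hsd17b1, whereas in Akr1b7 both XX libraries were below both XY libraries (the nearest at 0.480 and 0.499 CPM). How many of all genes separate in this way was not counted, here or for the orders of libraries given above. These orders are therefore descriptions only. Of the 10 genes, 0 passed between XY and XX -KTS KO and 0 between XY and XX +KTS KO with edgeR, where 0.0339% (0.0226% higher and 0.0113% lower in XY) and 0.0395% (0.0226% and 0.0169%) of all genes did. DESeq2 called Mc2r between the sexes of +KTS KO, and none of the 10 between those of -KTS KO. The effect of -KTS loss differed between the sexes in 0 of the 10 genes with edgeR (2.94% of all genes, 1.19% towards higher and 1.75% towards lower values in XY). With DESeq2 it differed for Hsd17b3. The effect of +KTS loss differed between the sexes in 2 of the 10, Hsd17b1 and Mc2r, both towards lower values in XY (3.82% of all genes, 1.80% towards higher and 2.03% towards lower values).

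Genes whose levels over the 12 libraries ran most like these were looked up for the genes with a group mean of 5 CPM or more, as Pearson's r of log2(CPM + 1). Cyp11a1 ran closest to Hk1 (r = 0.993), 1700007K13Rik (0.990) and Rgs10 (0.985). Star ran closest to Prxl2a (0.926), Aldh1a7 (0.920) and Pfkfb3 (0.910). Hsd17b3 ran closest to Hes5 (0.954), Srgn (0.947) and Esco2 (0.946), and Mc2r to Gm15050 (0.959), Kit (0.946) and Impact (0.941). The libraries share their group structure, so these values are descriptions.

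Shares of cells with a UMI were compared after each cell was thinned to 5000 UMIs, which left out 5051 of the 66195 gonadal cells (997 of 22507 in WT, 1518 of 18420 in -KTS KO and 2536 of 25268 in +KTS KO). The largest losses were in XY +KTS KO replicate 1 (4844 of 6437 cells kept) and XX -KTS KO replicate 2 (3190 of 4093 kept). All thinned values of these libraries thus cover their deeper cells. Cyp11a1 was found in 7.69% ± 0.162 of XX WT and 6.75% ± 3.22 of XY WT cells, in 0.343% ± 0.219 and 0.393% ± 0.149 of XX and XY -KTS KO cells, and in 31.7% ± 0.663 and 23.7% ± 8.61 of XX and XY +KTS KO cells (13.1%, 11.2%, 0.709%, 0.750%, 41.9% and 32.8% before thinning). Star was found in 4.52% ± 1.06 of XX WT, 8.80% ± 2.41 of XY WT, 13.8% ± 3.60 (XX) and 16.6% ± 0.372 (XY) of -KTS KO cells, and in 7.92% ± 0.189 and 7.16% ± 2.99 of XX and XY +KTS KO cells (10.4%, 17.9%, 27.9%, 30.9%, 18.8% and 14.01% before thinning). These are means ± SD of 2 libraries, and XY +KTS KO replicates 1 and 2 held 17.6% and 29.8% for Cyp11a1 and 9.27% and 5.05% for Star. Before thinning, cells with the transcript also held more of it. The mean number of Cyp11a1 UMIs in cells with any was 2.42 in XX WT and 2.21 in XY WT. It was 6.004 and 3.89 in XX and XY +KTS KO (2.93 and 4.86 in XY replicates 1 and 2). That of Star was 1.33 and 1.502 in WT against 2.28 and 2.45 in -KTS KO. The median depth of gonadal cells ran from 9804 to 18916.5 UMIs over the libraries, and its part in these means was not tested.

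Endothelial cells, which should lack these genes, served as the background of free RNA. The 2158 cells of clusters with endothelial markers (52 of them in a cluster led by the platelet genes Pf4 and Ppbp) had a median of 15692 UMIs, against 12907 in gonadal cells. The set was not uniform, with Star at 1.18 CPM in cluster 17 (1654 cells), 8.68 in cluster 28 (452) and 14.6 in cluster 33 (52). After thinning, Star was found in 1.30% of the 2158 cells' thinned set and Cyp11a1 in 0.831%, and the other 8 genes in 0.156% or less. Cyp11a1 in these cells followed the genotype, with 0.296% in WT, 0 of 282 in -KTS KO (a count of 0 allows up to 1.06%) and 2.06% in +KTS KO. The Cyp11a1 shares of -KTS KO gonadal cells lay under that limit, so this comparison does not set them apart from background. The source of these UMIs was not tested. The Star shares of all groups were above those of endothelial cells, which were 1.38%, 1.42% and 1.11% in WT, -KTS KO and +KTS KO.

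**Figure D3:**
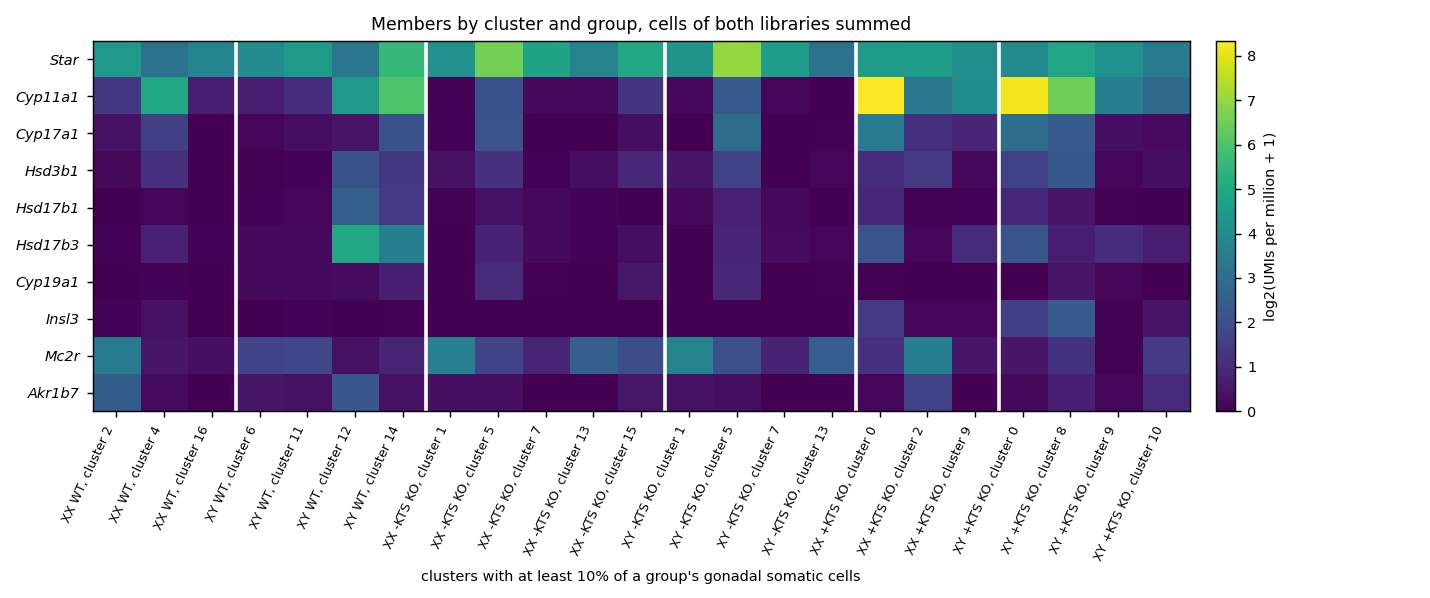
Level of each gene in CPM in the clusters that hold at least 10% of the gonadal cells of a group, by group, with cells of both libraries summed and colour on the log2(CPM + 1) scale. Among the clusters shown, Star is highest in cluster 5 of the -KTS KO groups, at 96.7 and 129 CPM in XX and XY, and Cyp11a1 in cluster 0 of the +KTS KO groups, at 322 and 293.

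Clusters show where the transcripts lay, with levels by cluster in CPM of the cluster's own UMIs. They are described without tests, since 9 of the 10 genes (not Mc2r) were among those used for clustering. In -KTS KO, Star was carried by cluster 5, a cluster led by Wfdc10, Wfdc13 and Cpa1 that took up 20.5% (XX) and 26.1% (XY) of -KTS KO cells and 61.1% and 74.0% of their Star UMIs, at 94.6 and 99.9 CPM in the XX libraries and 121 and 137 in the XY libraries. The little Cyp11a1 that was left in -KTS KO lay there too, with 83.7% of XX and 94.7% of XY UMIs, but only at 3.32 and 4.15 CPM. Cluster 5 also held 83.3% and 99.3% of Cyp17a1 UMIs and 91.9% and 97.6% of Cyp19a1 UMIs of the XX and XY -KTS KO groups. Star was thus high in a cluster that held little of the enzyme that follows it.

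In +KTS KO, Cyp11a1 was carried by cluster 0, whose leading genes are Cyp11a1 itself, Inha and Pnmt, with 70.7% of XX and 54.6% of XY Cyp11a1 UMIs (4.52% in XY replicate 1 and 72.5% in XY replicate 2). Its libraries were at 284 and 376 CPM in XX and 292 in XY replicate 2, whereas XY replicate 1 had 48 cells there. The 3994 cells of that library in cluster 8 were at 90.1. Some smaller clusters of XX +KTS KO were at higher levels than cluster 0 (322 CPM). Among them were cluster 18 at 528, cluster 21 at 409 and cluster 26 at 403 CPM. Cluster 0 held 68.7% of the Cyp17a1 and 64.1% of the Insl3 UMIs of XX +KTS KO, and cluster 8 held 75.1% of the Insl3 and 66.8% of the Hsd3b1 UMIs of XY +KTS KO replicate 1, but 0 of those of replicate 2, which had 14 cells there. In XX WT, the pre-granulosa-like cluster 4 held 54.7% of Cyp11a1 UMIs in 39.8% of the cells (30.6 and 31.1 CPM in the libraries). Cluster 18, with Sprr2d and Fst among its leading genes, held 27.7% of them in 7.74% of the cells, at 95.2 and 77.4 CPM. In XY WT it lay in cluster 14, led by Spp1, Cpa1 and Gldn (52.8%, 65.4 and 64.0 CPM), and in the Sertoli-like cluster 12 (30.5%, 18.2 and 25.3 CPM). In XY WT, Star was at 42.1 and 48.2 CPM in cluster 14, which also held 71.4% of Cyp17a1 UMIs. In cells of cluster 14, which both WT and +KTS KO contained, Cyp11a1 was at 120 and 95.1 CPM in XX WT and at 243 and 340 in XX +KTS KO.

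The Sertoli-like cluster 12 held 80.7% of the Hsd17b3 UMIs of XY WT (40.3 and 21.2 CPM in replicates 1 and 2), 79.2% of Hsd17b1 (7.74 and 1.57), 70.9% of Hsd3b1 and 74.3% of Akr1b7. It had 2940 cells from XY WT, 5 from XY +KTS KO and 0 from the other 4 groups. Mc2r lay elsewhere. The interstitial progenitor-like cluster 2 held 54.3% of its UMIs in XX WT (9.03 and 9.80 CPM) and 56.7% in XX +KTS KO (11.9 and 10.3). Its share in XY +KTS KO was 31.4% (15.5% in replicate 1 and 44.7% in replicate 2). In XY WT it held 15.2% in 4.32% of the cells, at 7.85 CPM, the highest level of the 3 clusters named here for that group. The other two, cluster 6 (led by Pimreg, Psrc1 and Dkk1) and cluster 11 (led by Dkk1, Hsd11b2 and Ntf3), held 36.5% and 32.2% in 21.9% and 26.0% of the cells, at 2.20 and 2.44 CPM. In -KTS KO, cluster 1, led by Ecm1, Il33 and Cd55, held 59.2% (XX) and 59.5% (XY) of them (11.4 to 12.8 in the 4 libraries). The same cluster 2 held 39.0% of Akr1b7 UMIs in XX WT, where cluster 6 held 26.2%, and 70.6% in XX +KTS KO. No cluster could be named fetal Leydig-like or adrenal cortex-like. The 7 fetal Leydig markers outside the 10 genes summed to 168 to 378 CPM, highest in XY WT replicate 1, with 0 of them at 0 in any library. Much of this sum was Fdx1 and Fdxr, at 69.7 to 109 and 69.8 to 140 CPM over the libraries. Lhcgr was at 0.0976 to 2.95 CPM and Ren1 at 0.635 to 102, so the sum does not measure Leydig cells. Of 6 adrenal cortex markers, 5 were in the tables and 2 or 3 were at 0 in each library. Their sum was 1.73 to 10.1 CPM. Cyp11b1 and Cyp11b2, which make the adrenal corticoids, had 0 UMIs in all 12 libraries, and Cyp21a1 was at 0.0571 CPM at most.

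Co-detection was first counted as gonadal cells with at least 1 UMI of 3 or more of the 10 genes. They numbered 13 and 17 in XX WT, 51 and 71 in XY WT, 21 and 6 (XX) and 16 and 24 (XY) in -KTS KO, 180 and 139 (XX) and 130 and 67 (XY) in +KTS KO. As shares these were 0.243%, 0.296%, 0.758%, 1.52%, 0.478%, 0.147%, 0.315%, 0.495%, 2.34%, 3.22%, 2.02% and 0.982% in the same order. The 4 +KTS KO libraries overlapped WT through XY WT replicate 2 and XY +KTS KO replicate 2. The mean share was 2.14% ± 0.926 (SD, n = 4) in +KTS KO and 0.703% ± 0.589 (SD, n = 4) in WT, a difference that did not pass (exact permutation test of the 4 against 4 libraries, two-sided, p = 0.0571, with 0.0286 the smallest possible over 70 splits). In -KTS KO it was 0.359% ± 0.163 (SD, n = 4, exact permutation p = 0.343). The splits ignored sex, so the difference between XX and XY libraries counted as spread. This share also rises when a single common gene such as Cyp11a1 rises, so it does not isolate co-detection. Thinned to 5000 UMIs, the means were 0.451% in +KTS KO, 0.0781% in WT and 0.0438% in -KTS KO (exact permutation p = 0.0571 and 0.486 against WT). Cells with 3 or more of the genes were deeper, with a median of 15538.5 UMIs in WT, 20556 in -KTS KO and 16432 in +KTS KO, against 11557, 13339 and 11872.5 in cells with 0 of them. Without XY +KTS KO replicate 1, the +KTS KO mean was 2.18% (exact permutation p = 0.0857). Across all libraries, 10 cells held 5 or more of the genes.

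**Figure D4:**
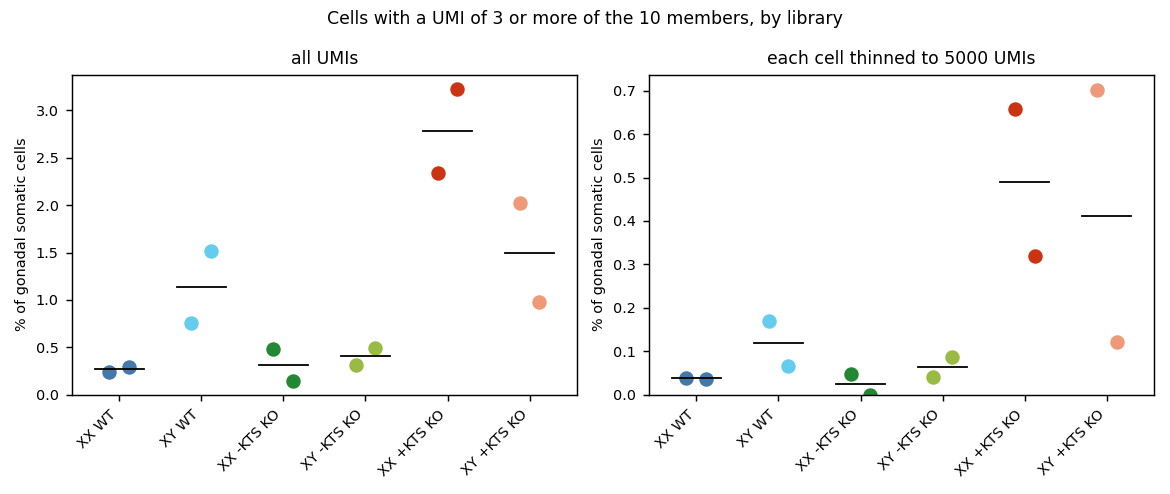
Share of gonadal somatic cells with at least 1 UMI of 3 or more of the 10 genes, in percent, for each library (points) by group, before and after thinning to 5000 UMIs. Before thinning XX +KTS KO lies highest, at 2.34% and 3.22%, and after it XY +KTS KO replicate 1 does, at 0.702%, above XX +KTS KO at 0.658% and 0.320%.

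Pairs of genes were then compared with the number of cells expected from the product of both shares within each library, in thinned cells. In WT, 128 cells held Star and Cyp11a1 where 99.3 were expected, but the sexes went opposite ways. XX WT had 22 against 36.4 (observed over expected 0.641 and 0.560 in the libraries) and XY WT had 106 against 63.0 (1.99 and 1.53). In -KTS KO, 25 cells held both against 9.49, and in +KTS KO 511 against 463 (397 against 383 without XY +KTS KO replicate 1). In -KTS KO the closest partner of Star was Cyp17a1, with 40 cells against 10.1, above expectation in 4 of 4 libraries, so that 59.7% of the 67 Cyp17a1 cells also held Star.

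In +KTS KO, Cyp11a1 was the common partner. Cells with Cyp17a1 held it in 66.9% (261 cells against 113), cells with Insl3 in 71.9% (87 against 29.7), cells with Hsd17b3 in 63.4% (118 against 57.0) and cells with Hsd3b1 in 53.8% (57 against 25.9), each above expectation in 4 of 4 libraries. Without XY +KTS KO replicate 1 the counts were 223 against 101 for Cyp17a1, 48 against 19.3 for Insl3, 114 against 55.4 for Hsd17b3 and 23 against 16.4 for Hsd3b1. Mc2r went the other way. It was found with Cyp11a1 in 31 +KTS KO cells against 74.0 (26 against 67.4 without that library) and in 3 WT cells against 11.9, below expectation in 4 of 4 libraries of each. Hsd17b3 and Mc2r were found together in 0 cells of each genotype, against 3.31 in WT, 0.538 in -KTS KO and 2.16 in +KTS KO. In WT, Hsd17b1 and Hsd17b3 shared 21 cells against 3.40, all in XY. The same was counted within clusters. Within cluster 0 of +KTS KO, Star and Cyp11a1 were together in 325 cells against 322 and Cyp11a1 and Cyp17a1 in 188 against 154, while Star and Cyp17a1 kept a ratio of 2.28 (47 against 20.7). Without XY +KTS KO replicate 1 these were 318 against 318, 182 against 150.4 and 43 against 20.01. Within cluster 5 of -KTS KO, Star and Cyp11a1 had 22 against 21.5 and Star and Cyp17a1 40 against 26.3. Within the Sertoli-like cluster 12 of WT, Hsd17b1 and Hsd17b3 kept 19 against 7.46, and Cyp11a1 and Akr1b7 had 0 against 4.37.

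**Figure D5:**
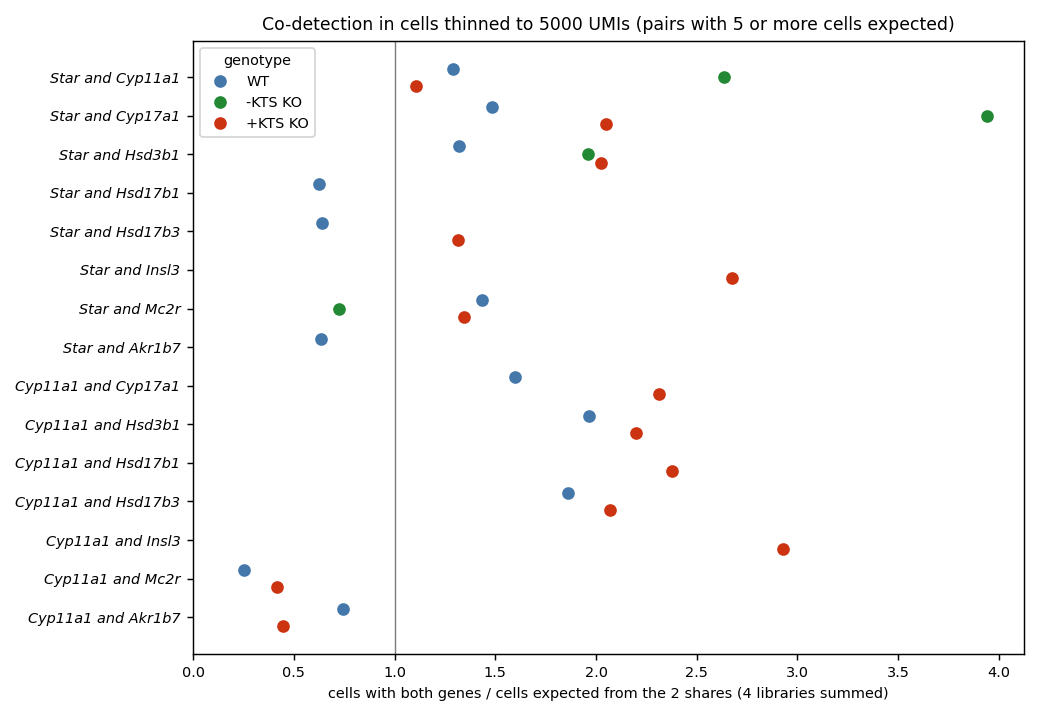
Observed over expected number of thinned gonadal cells with both genes of a pair, on a linear axis from 0, for pairs of the 10 genes with 5 or more cells expected, by genotype (4 libraries summed). Cyp11a1 with Insl3 and with Cyp17a1 lies above 1 in +KTS KO (2.93 and 2.32), and Cyp11a1 with Mc2r lies below 1 (0.419).

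Cells that held at least 4 of Star, Cyp11a1, Cyp17a1, Hsd3b1 and Insl3, genes that Leydig cells express, were counted as well, a set chosen after values were seen. The count does not name a cell type. No expected number was computed for it, so joint expression cannot be told apart from the levels of single genes and the depth of cells. There were 0 in the 4 WT libraries, 1 and 0 (XX) and 0 and 1 (XY) in -KTS KO, 11 and 11 (XX) and 20 and 3 (XY) in +KTS KO. The count in XY +KTS KO was thus carried by replicate 1, the library that stands apart, and 14 of its 20 cells lay in cluster 8. The 4 cells with all 5 genes came from it. The 20 cells of that library held 4502 to 84291 UMIs, against a median of 9804 over its gonadal cells. One of the 2 cells outside +KTS KO, in XY -KTS KO replicate 2, held 12 UMIs of Star, 14 of Cyp11a1, 55 of Cyp17a1 and 4 of Hsd3b1 among 21167.

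Other genes of the pathway were counted on a list of 54, of which 46 were tested. In XX -KTS KO, 1 was higher and 15 lower than in XX WT with edgeR, where 6.77% and 9.52% of all genes were (median log2 fold change -0.37, against 0.01 over all genes). In XY -KTS KO, 2 were higher and 17 lower, where 11% and 12.4% of all genes were (-0.48 against 0.01). In XX +KTS KO, 4 were higher and 1 lower, beside 2.30% and 2.63% of all genes (0.03 against 0.00). In XY +KTS KO, 9 were higher and 6 lower, beside 6.01% and 6.34% of all genes (0.21 against 0.05). Fewer were called without XY +KTS KO replicate 1, a fit for which the share of all genes called is not given. Between XY and XX WT, 5 were higher and 9 lower, beside 6.97% and 6.24% of all genes (0.04 against -0.02). Nr5a1, the activator of steroid enzymes, was at 35.5 and 34.1 CPM in XX WT, 43.3 and 60.3 in XY WT, 12.5 to 21.8 in -KTS KO and 60.3 to 76.2 in +KTS KO, and it rose in XX +KTS KO (log2 0.96, SE 0.23, edgeR adjusted p = 0.0478). Over all gonadal somatic cells summed, its partner and repressor Nr0b1 fell in XX and XY -KTS KO (-3.29 and -1.79, edgeR adjusted p = 0.000304 and 0.00214). Within pre-supporting cells the paper reports the opposite direction, with Nr0b1 up-regulated in XX -KTS KO. Akr1cl, an aldo-keto reductase, fell in XX and XY -KTS KO (-2.50 and -2.76, edgeR adjusted p = 0.000138 and 2.25e-05), from 428 to 712 CPM in WT to 86.8 to 109 CPM.

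Among genes of cholesterol supply, Scarb1, the receptor that takes up cholesterol esters, rose in XX +KTS KO (log2 1.09, SE 0.19, edgeR adjusted p = 0.0130), and Soat1, which stores cholesterol as esters, rose in XY +KTS KO (1.71, SE 0.42, edgeR adjusted p = 0.0284) and fell in XX -KTS KO (-1.68, SE 0.42, edgeR adjusted p = 0.0237). Ren1, the renin gene, which fetal steroid cells also express, was at 102 and 11.6 CPM in XY WT against 2.33 and 1.43 in XX WT (log2 4.93, edgeR adjusted p = 0.00597), fell in XY -KTS KO (-5.51, edgeR adjusted p = 0.00218) and rose in XX +KTS KO (4.12, edgeR adjusted p = 0.0231), where it was at 22.3 and 42.7 CPM. Ppargc1a, a coactivator, was higher in XY than in XX WT (3.60, edgeR adjusted p = 0.00306), fell in XY +KTS KO (-4.13, edgeR adjusted p = 0.00237) and rose in XX -KTS KO (2.06, edgeR adjusted p = 0.0252). Hsd11b2, which inactivates glucocorticoids, was higher in XY than in XX WT (3.15, edgeR adjusted p = 0.00485) and fell in XY -KTS KO (-2.16, edgeR adjusted p = 0.0130), although its XY WT libraries were at 238 and 54.6 CPM. Akr1b8 was higher in XY than in XX WT (1.59, edgeR adjusted p = 0.000550) and fell in XY +KTS KO (-2.40, edgeR adjusted p = 0.000138), Hsd17b11 fell in XX +KTS KO (-1.12, edgeR adjusted p = 0.0223) and Nr3c1, the glucocorticoid receptor, rose in XY +KTS KO (1.20, edgeR adjusted p = 0.0232). Of these 20 named values, 10 passed both without replicate 1 and without replicate 2 of the groups compared, 3 passed one of them and 7 neither. The 4 of XX +KTS KO were among the 7, as were Ppargc1a and Soat1 in XX -KTS KO and Ppargc1a between the WT sexes. Without XY +KTS KO replicate 1, Soat1 and Nr3c1 did not pass in XY +KTS KO (edgeR adjusted p = 0.108 and 0.0863), whereas Ppargc1a and Akr1b8 did (0.000190 and 0.000927).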

How the data were processed

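Gonads were dissociated with trypsin and single cells were captured on the 10x Genomics platform, with 3′ libraries (a v2 kit in the labels and v3 in the study's methods). The authors aligned reads with Cell Ranger 6.0 to mm10, per the submitters' processing notes, and deposited UMI counts per gene and cell barcode with no normalization. From these counts, 103730 barcodes in all, those with 1000 genes or more and mitochondrial UMIs of up to 10% were kept (83513). The 7447 barcodes with the highest Scrublet scores (scanpy 1.11.5, a fixed 0.8% per 1000 barcodes, over all barcodes) were removed as likely doublets, and the 77000 cells left were clustered with sctransform 0.4.2 and Seurat 5.3.0 (3000 genes, 50 components, resolution 0.8).

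Library sums of the 66195 gonadal somatic cells were TMM-scaled and tested with edgeR 4.0.16 (R 4.3.3, quasi-likelihood test over the 6 groups, filterByExpr, Benjamini-Hochberg adjustment at 0.05), with DESeq2 1.42.0 as an alternative. The library was the replicate, and leaving out a replicate number dropped it from the groups compared only, the other groups supplying the spread. Shares of cells were compared by a two-sided exact permutation test over libraries (scipy 1.17.1). Depth was 108111924 to 147968666 UMIs in a library. Levels by cluster are CPM without TMM scaling. All 10 genes are named. Of the other steroid genes, up to 4 with the largest change among those called at 5 CPM or more are named for each comparison with WT, and the adrenal genes are always given. The genes and lists were chosen with earlier results of these data known. Promoter sequences are from RefSeq. Sts and the adrenal marker Nov were not found under these symbols.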

Additional observations from a re-analysis of the deposited data

Results flagged for a closer look

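The effect of +KTS loss differed between the sexes in 2 of the 10 genes by a test of the difference itself (edgeR's interaction term). For Hsd17b1 the difference was -4.17 on the log2 scale (SE 0.72, edgeR adjusted p = 0.0157). The gene was at 0.148 and 0.153 CPM in XX WT against 0.527 and 0.468 in XX +KTS KO, and at 2.50 and 0.813 in XY WT against 0.231 and 0.370 in XY +KTS KO, so both XX mutant libraries were above their controls and both XY mutant libraries below theirs. Without replicate 1 the difference was -2.74 (edgeR adjusted p = 0.163), and without XY +KTS KO replicate 1 alone -3.87 (0.0354).

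For Mc2r the difference was -1.40 (SE 0.28, edgeR adjusted p = 0.0294), from 1.43 and 1.76 CPM in XX WT to 2.83 and 3.36 in XX +KTS KO, and from 1.77 and 1.66 in XY WT to 1.25 and 1.26 in XY +KTS KO. It was lost without replicate 1 (-1.33, edgeR adjusted p = 0.231), without replicate 2 (-1.47, 0.121) and with all kept cells summed (-1.34, 0.186), and passed without XY +KTS KO replicate 1 alone (-1.39, 0.0476). The interstitial progenitor-like cluster 2, where Mc2r was counted most in XX +KTS KO, held 15.6% and 20.8% of the cells of the XX +KTS KO libraries and 4.92% and 12.9% of those of XY +KTS KO. The part of this in the difference was not tested.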

How the results depend on the processing

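Of 30 single results of the 10 genes (24 called), 5 stayed called under every alternative. Another scaling (RLE) changed none of the 30 calls, doublets kept or clusters 23, 31 and 34 left out lost 1 each, and all kept cells summed lost 6. Leaving out replicate 1 lost 18 calls and replicate 2 lost 12. The share of all genes called under each alternative is not given, so a general shift in calls cannot be told apart. Counts of the 10 genes called moved over 1.5 times as follows, and the cause was not tested where samples were not fewer. With all kept cells summed, 3 were called in XX -KTS KO, 1 in XX +KTS KO and 1 in the interaction of +KTS loss with sex. Without the low-count filter, 5 were called between the WT sexes, 1 in the -KTS interaction and 5 in the +KTS interaction. DESeq2 called 1 between the sexes of +KTS KO, 1 in the -KTS interaction and 4 in the +KTS interaction. Leave-one-out counts were 2 to 2 in XX -KTS KO, 3 to 4 in XY -KTS KO, 0 to 0 in XX +KTS KO, 2 to 6 in XY +KTS KO, 0 to 1 between the WT sexes and 1 to 2 in the +KTS interaction. Without XY +KTS KO replicate 1 (an alternative chosen after seeing the data, like the one without those clusters), 3 were called in XY +KTS KO and 4 in the +KTS interaction. Other steroid genes called in XY -KTS KO were 10 with all kept cells (7 to 8 leave-one-out) and in XX +KTS KO 2 with all kept cells, 9 without the filter and 9 with DESeq2 (0 to 0). Leave-one-out gave 2 to 2 in XX -KTS KO, 5 to 20 in XY +KTS KO (9 without XY +KTS KO replicate 1) and 3 to 8 between the WT sexes. The share of cells with 3 or more genes differed between +KTS KO and WT at 3000 UMIs (0.155 percentage points, exact permutation p = 0.0286) and with 2 UMIs of each gene (0.274, exact permutation p = 0.0286), and that of -KTS KO turned to 0.0497 with 2 UMIs of each (exact permutation p = 0.257). Log2 differences that reversed, leave-one-out, ran from -1.14 to 0.32 (Star, XY +KTS KO), -1.44 to 0.46 (Cyp17a1, XX -KTS KO) and -2.20 to 1.40 (Hsd3b1, XY +KTS KO, and -2.04 without XY +KTS KO replicate 1 alone). Correlations of same-numbered samples' deviations ran from -0.28 to 0.32 over 15 pairs of groups. They were 0.11 to 0.14 between the sexes of each genotype but not over 0.1 in every pair, so the numbers were not taken to pair the samples. With the replicate block, 4, 6, 2, 4 and 2 of the genes were called in XX -KTS KO, XY -KTS KO, XX +KTS KO, XY +KTS KO and between the WT sexes, and Star between the WT sexes, Cyp17a1 in XX +KTS KO, Hsd17b3 in XY +KTS KO and Insl3 in XX -KTS KO lost their calls. With 1 library left in a group, its spread was taken from the other groups. Genes with few UMIs (Cyp19a1, Insl3, Hsd17b1) limit what their values show.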
